A study of Mus musculus with 7 samples.

Results

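The choroid plexus and cortical hem genes are a set of 8 genes, Ttr, Folr1, Kcnj13, Clic6, Otx2, Lmx1a, Msx1 and Msx2, chosen by name for tissue at the medial edge of the cerebral cortex. Each gene was read from the probe set that carries no other gene symbol, and 7 of the 8 had such a probe set, out of 19938 genes analysed in all. Lmx1a was not analysed here. The samples were 7 preparations of sorted cells from the cerebral cortex of C57BL/6 mouse embryos at embryonic day 14, each hybridised to 1 Affymetrix array. In 3 of them Trnp1, a nuclear protein of cortical progenitors, had been knocked down, and the other 4 were controls of the genotype WT. In both groups the cortex was electroporated on embryonic day 13 with constructs that carried green fluorescent protein, and fluorescent cells were sorted 24 h later. Electroporation reaches only part of the cortical cells, the labels do not name the control construct, and they do not say how many embryos were pooled in a sample. P-values therefore measure the spread between these samples. The question put to these genes is whether their levels in sorted cortical cells change within a day of lowering Trnp1.

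The cortical hem is a signalling centre at the medial margin of the embryonic cortex that secretes Wnt and bone morphogenetic proteins (BMPs). Next to it, under high BMP signalling, the dorsal midline folds into the choroid plexus, whose epithelium no longer makes neurons and secretes the cerebrospinal fluid. Choroid plexus epithelium is known for very high expression of Ttr and for transporters and channels such as Folr1, Kcnj13 and Clic6. Otx2 is a homeodomain factor needed to form the choroid plexus, Lmx1a is a LIM homeodomain factor of the hem and roof plate, and Msx1 and Msx2 are homeodomain factors that BMP signals induce at the dorsal midline.

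The regions before the transcription starts of Kcnj13, Otx2 and Msx1 are shown because these members were high together in 1 array and because the set itself holds homeodomain factors of both kinds of core motif searched. The letters are the 250 bases before the start, on the gene's own strand, from RefSeq (GRCm38.p6), at chr1:87394730-87394979 for Kcnj13, chr14:48667645-48667894 for the outermost start of Otx2 and chr5:37824586-37824835 for Msx1, all on the minus strand. Capitals mark a match to TAATTG or its reverse complement CAATTA, a core bound by Msx type homeodomains, and a match to TAATCC or GGATTA, the core bound by Otx factors, would be marked in the same way.
Kcnj13: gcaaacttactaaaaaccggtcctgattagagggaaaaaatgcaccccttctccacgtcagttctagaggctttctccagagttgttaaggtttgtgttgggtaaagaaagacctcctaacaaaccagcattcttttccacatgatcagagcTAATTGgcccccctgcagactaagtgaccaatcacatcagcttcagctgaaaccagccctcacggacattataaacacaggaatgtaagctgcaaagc
Otx2: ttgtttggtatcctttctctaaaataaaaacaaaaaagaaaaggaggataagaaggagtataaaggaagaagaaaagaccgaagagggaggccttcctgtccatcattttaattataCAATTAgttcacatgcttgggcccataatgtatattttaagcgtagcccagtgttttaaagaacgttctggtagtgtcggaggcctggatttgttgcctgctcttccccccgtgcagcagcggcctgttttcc
Msx1: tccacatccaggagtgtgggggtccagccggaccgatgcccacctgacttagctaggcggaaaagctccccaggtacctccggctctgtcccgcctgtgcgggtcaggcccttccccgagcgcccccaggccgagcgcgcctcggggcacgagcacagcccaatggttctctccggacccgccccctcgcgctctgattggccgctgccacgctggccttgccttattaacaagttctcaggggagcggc
Kcnj13 and Otx2 each held 1 match to the Msx type core, 98 and 133 bases before the start, and the window of Msx1 held none. In all, 8 windows of 5 members were searched. Ttr, Folr1 and Clic6, which were high in the same array, were not searched. Those of Msx2 and Lmx1a, which are not printed, held no match to either core. Of the 3 further starts of Otx2, 1 had no match, 1 had the Otx core GGATTA 211 bases before it and 1 had the Msx type core 204 bases before it. Of all 32851 RefSeq promoter windows of this length, 7.17% held the Msx type core and 6.25% the Otx core. A match is only a run of letters, and nothing was measured at these sites.

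Most members were at least 1 log2 unit above their median only in control replicate 4 and knockdown replicate 2, 1 array of each group. In knockdown replicate 2 Folr1 and Kcnj13 were only 1.01 and 1.17 above it, and Msx1 and Msx2 were 0.04 and 0 above it. In control replicate 4 all 7 measured members were at their highest, and 6 of the 7 were at least 1 log2 unit above the median of the 7 arrays, where 3.29% of all genes were that high. In knockdown replicate 2 there were 5 of 7, where 1.38% of all genes were that high. In control replicate 3 Ttr was high on its own, 1 of 7 where 0.512% of all genes were, and in control replicates 1 and 2 and knockdown replicates 1 and 3 it was 0 of 7, where 0.802%, 0.316%, 1.74% and 1.68% of all genes were. No member passed the comparison of knockdown with control (0 of 7 by limma at an adjusted p under 0.05, where 0% of all genes passed, and 0 of 7 at an unadjusted p under 0.05, where 5.81% did, 2.2% as higher and 3.61% as lower). The groups overlapped for all 7 members, whereas they did not overlap for 5.67% of all genes. In bulk samples like these, fewer cells of a type and less RNA per cell cannot be told apart.

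**Figure D1:**
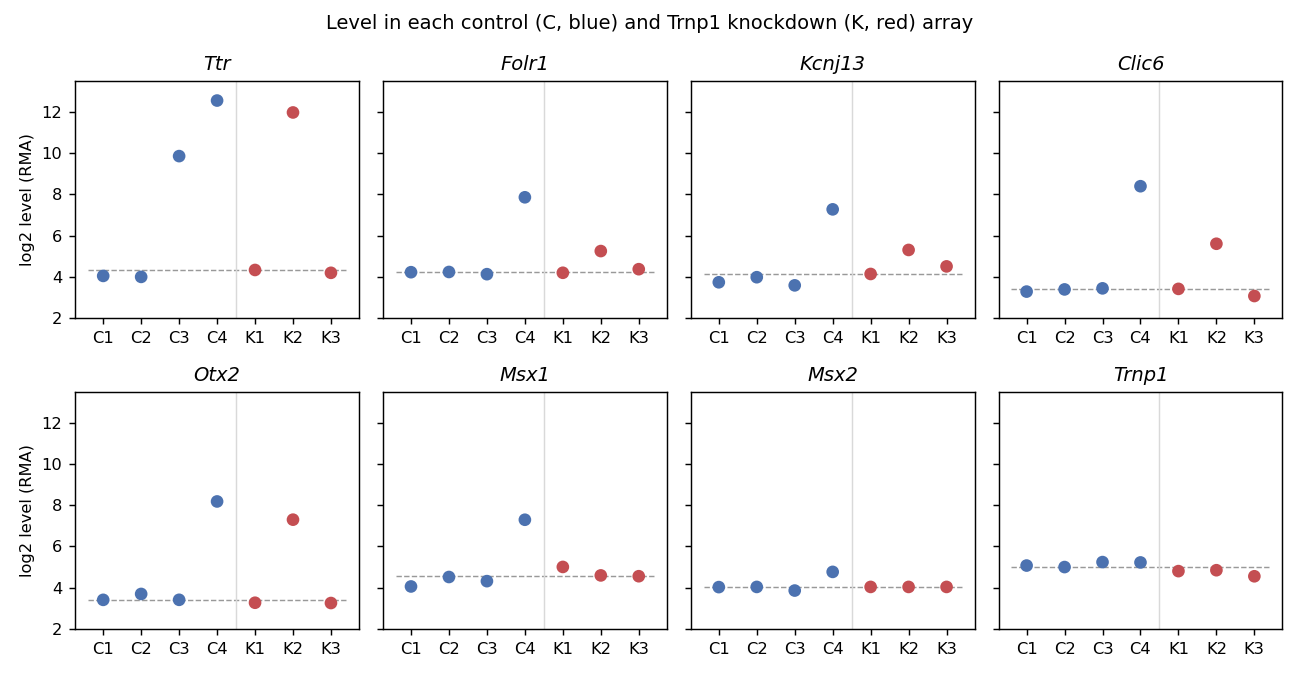
Log2 level of the 7 measured members and of Trnp1 in each array, controls (C) in blue and Trnp1 knockdown samples (K) in red. The dashed line is the median of the 7 arrays. Ttr stands at 9.86, 12.55 and 11.98 in C3, C4 and K2 and near 4 elsewhere, and C4 is the highest array for each of the 7 members.

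Ttr (Entrez 22139) encodes transthyretin, the carrier of thyroid hormone that the choroid plexus releases into the cerebrospinal fluid. Its log2 level was 4.05, 4.00, 9.86 and 12.55 in control replicates 1 to 4 and 4.34, 11.98 and 4.20 in knockdown replicates 1 to 3. It was high in control replicates 3 and 4 and knockdown replicate 2 and near 4 in the other 4 arrays, so both groups held samples at either end. Its deposited values spanned 8.55 log2 units from the lowest to the highest array. The median of Ttr was 4.34, below 4.87, the median of the mean levels of all genes, and the medians of the other 6 members were below it too. Whether such low values lie above background was not determined, so the heights above the median are given in log2 units of array signal and not as folds of transcript. Ttr stood 8.22 above its median in control replicate 4, 7.64 in knockdown replicate 2 and 5.52 in control replicate 3. The mean of the control group was 7.62 ± 4.29 (SD, n = 4) and that of the knockdown group 6.84 ± 4.45 (SD, n = 3). Their difference, knockdown minus control, was -0.78 (SE 2.74, limma adjusted p = 0.961), and its 95% interval of -7.20 to 5.64 allows a large change either way. The difference was 0.87 without control replicate 4 and -3.35 without knockdown replicate 2, and it was 0.47 when knockdown replicate 1 was left out and 0.54 when replicate 3 was.

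The transporters and channels of the plexus epithelium followed Ttr in 2 of its 3 high arrays. Clic6 (Entrez 209195), a member of the chloride intracellular channel family, was at a log2 level of 3.29, 3.40, 3.45 and 8.40 in the controls and 3.42, 5.61 and 3.08 in the knockdown samples. It stood 4.98 log2 units above its median of 3.42 in control replicate 4 and 2.19 in knockdown replicate 2. The other 5 arrays spanned 0.37 log2 units. The difference between groups was -0.60 (SE 1.34, limma adjusted p = 0.938), and it was 0.66 without control replicate 4 and -1.39 without knockdown replicate 2.

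Folr1 (Entrez 14275), the folate receptor that carries folate across the plexus epithelium, was at 4.23, 4.24, 4.14 and 7.86 in controls and 4.20, 5.26 and 4.38 in knockdown samples. Control replicate 4 stood far above the rest, 3.62 log2 units over the median, and knockdown replicate 2 was 1.01 over it. The remaining 5 arrays lay within 0.24 log2 units of each other. The difference was -0.51 (SE 0.93, limma adjusted p = 0.920), and it was 0.41 without control replicate 4 and -0.83 without knockdown replicate 2.

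Kcnj13 (Entrez 100040591) encodes an inwardly rectifying potassium channel of the apical membrane of the plexus epithelium. Its level was 3.74, 3.99, 3.59 and 7.28 in controls and 4.15, 5.31 and 4.51 in knockdown samples, with control replicate 4 at 3.13 and knockdown replicate 2 at 1.17 log2 units above the median. The gene lies within Gigyf2 in the RefSeq table, and Gigyf2 itself was between 6.97 and 7.27 in all 7 arrays, so the host gene did not share this pattern. The difference between groups was 0.0058 (SE 0.89, limma adjusted p = 0.999), and it was 0.88 without control replicate 4 and -0.32 without knockdown replicate 2. In knockdown replicates 1 and 3 Kcnj13 was also above control replicates 1 to 3, and without both control replicate 4 and knockdown replicate 2 the difference was 0.55 (SE 0.19, limma adjusted p = 0.343), which did not pass. Here and below, leaving out both arrays was chosen after their high values were seen, so a smaller SE follows from that choice.

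Otx2 (Entrez 18424) had high levels in control replicate 4 and knockdown replicate 2 that were closer to each other than those of the transporters and channels. Its level was 3.41, 3.70, 3.41 and 8.18 in controls and 3.27, 7.30 and 3.26 in knockdown samples. It stood 4.77 log2 units above its median of 3.41 in control replicate 4 and 3.89 in knockdown replicate 2. In control replicate 3, the array with Ttr alone high, Otx2 stood at its median. The difference between groups was -0.07 (SE 1.47, limma adjusted p = 0.995), and leaving out control replicate 4 gave 1.10. Leaving out knockdown replicate 1, 2 or 3 gave 0.60, -1.41 and 0.61.

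The BMP-induced homeodomain factors of the dorsal midline followed a narrower pattern. Msx1 (Entrez 17701) was at 4.06, 4.52, 4.32 and 7.29 in controls and 5.01, 4.59 and 4.56 in knockdown samples. Only control replicate 4 stood apart, 2.74 log2 units above the median, and knockdown replicate 2 was 0.04 log2 units above it. The difference was -0.33 (SE 0.75, limma adjusted p = 0.939), and 0.42 without control replicate 4. Msx2 (Entrez 17702) was at 4.03, 4.04, 3.86 and 4.76 in controls and at 4.04 in all 3 knockdown samples. The deposited value 4.036 was the same in 4 arrays, and 1.7% of all genes had some value in common to at least 4 arrays, with a median level of 3.47 over these genes. Msx2 was highest in control replicate 4 by 0.73 log2 units over its median, less than the mark of 1 unit. Its difference was -0.14 (SE 0.22, limma adjusted p = 0.915), with a knockdown SD of 0, so this SE rests on the controls and on the spread of other genes. Without control replicate 4 it was 0.06.

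Over the 7 measured members the median difference was -0.33, with 6 lower and 1 higher, beside a median of -0.001 over all genes, of which 49.8% were higher. This median was 0.66, with 7 of 7 higher, without control replicate 4 and -0.83, with 7 of 7 lower, without knockdown replicate 2. Without both arrays it was 0.06, with 4 higher and 3 lower, and without control replicate 3 as well it was 0.05. Among the 5 arrays left without control replicate 4 and knockdown replicate 2, each member except Ttr spanned less than 1 log2 unit, from 0.18 for Msx2 to 0.95 for Msx1.

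**Figure D2:**
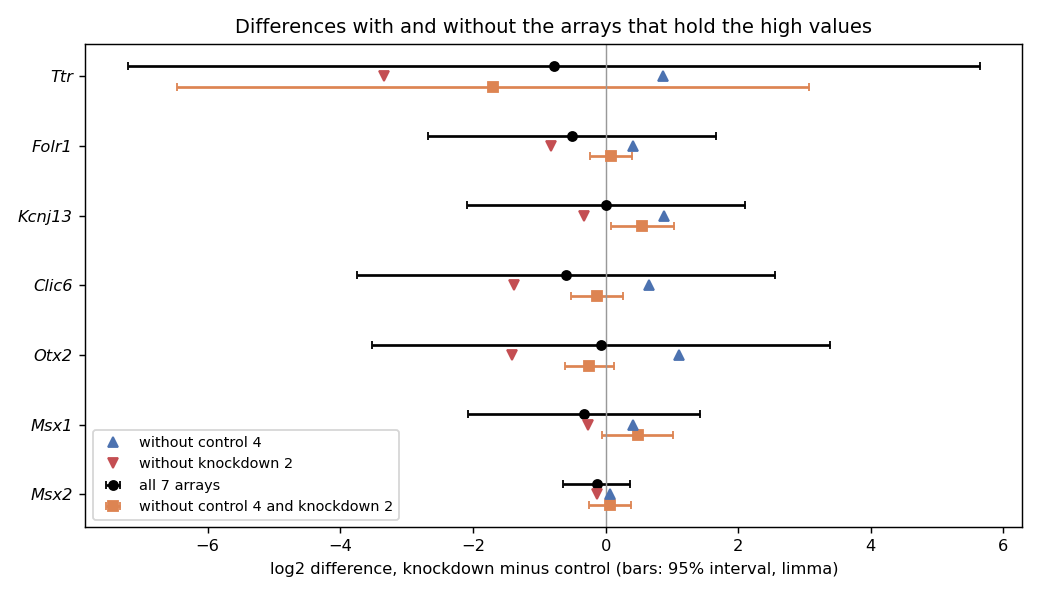
Log2 difference, knockdown minus control, of each member with all 7 arrays (black, 95% interval of limma), without control replicate 4 (blue), without knockdown replicate 2 (red) and without both (orange, 95% interval). For Ttr the difference is -0.78 with all arrays, 0.87 without control replicate 4 and -3.35 without knockdown replicate 2, and the intervals for the other members narrow once both arrays are left out.

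The high arrays differed in which members they held. Control replicate 4 exceeded knockdown replicate 2 by 0.58 log2 units for Ttr and 0.88 for Otx2. For the other plexus genes the gap was wider, at 1.97 for Kcnj13, 2.61 for Folr1 and 2.79 for Clic6. For Msx1 it was 2.70, nearly the whole of its height of 2.74 in control replicate 4. These are single arrays, so the gaps have no replicate check.

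The other genes of the choroid plexus epithelium, a list without the members, were high mainly in control replicate 4. Of 46 genes written, 42 were measured, and 25 of these were at least 1 log2 unit above their median in control replicate 4 (3.29% of all genes were). In knockdown replicate 2 there were 7 of 42 (1.38% of all genes), and these 7 were among the 25. The median height over the list was 1.22 log2 units in control replicate 4 and 0.14 in knockdown replicate 2, beside 3.62 and 1.17 for the members. In control replicate 3, where Ttr was high, there were 0 of 42, and there were 0, 0, 1 and 2 in control replicates 1 and 2 and knockdown replicates 1 and 3. The 7 genes high in both were Sostdc1, Vat1l, Calml4, Htr2c, Kcne2, Slc4a5 and Igf2, the last of which was also high in knockdown replicate 1 (8.11). Genes named from here on for being high or low in single arrays were chosen after their values were seen, in the plexus, multiciliated cell and hem lists alike. These are the 7 above and Cldn1, Car12, Aqp1, Kl, Enkur, Spag6l, Rsph4a, Foxj1, Bmp4, Wnt2b, Wnt3a, Wnt5a, Wnt8b, Sulf1 and Zic1.

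Sostdc1, a secreted inhibitor of BMP and Wnt signalling, was at 3.99, 3.70, 4.28 and 8.99 in controls and 3.62, 5.95 and 4.03 in knockdown samples. Htr2c, the serotonin receptor typical of this epithelium, was at 7.21 in control replicate 4, 4.57 in knockdown replicate 2 and between 2.96 and 3.38 elsewhere. Both were high in the same pair of arrays as Clic6 and Folr1. The tight junction gene Cldn1 was at 7.38 in control replicate 4 but 3.49 in knockdown replicate 2, against 2.86 to 3.40 in the other arrays. The carbonic anhydrase gene Car12 likewise was at 8.45 and 4.49, where knockdown replicates 1 and 3 were at 4.34 and 4.44. The water channel gene Aqp1 was at 6.65 and 4.91, and Kl, the gene of the ageing-related protein Klotho, stayed between 3.19 and 3.62 in all arrays. Whether the levels of Kl lie above background was not determined.

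**Figure D3:**
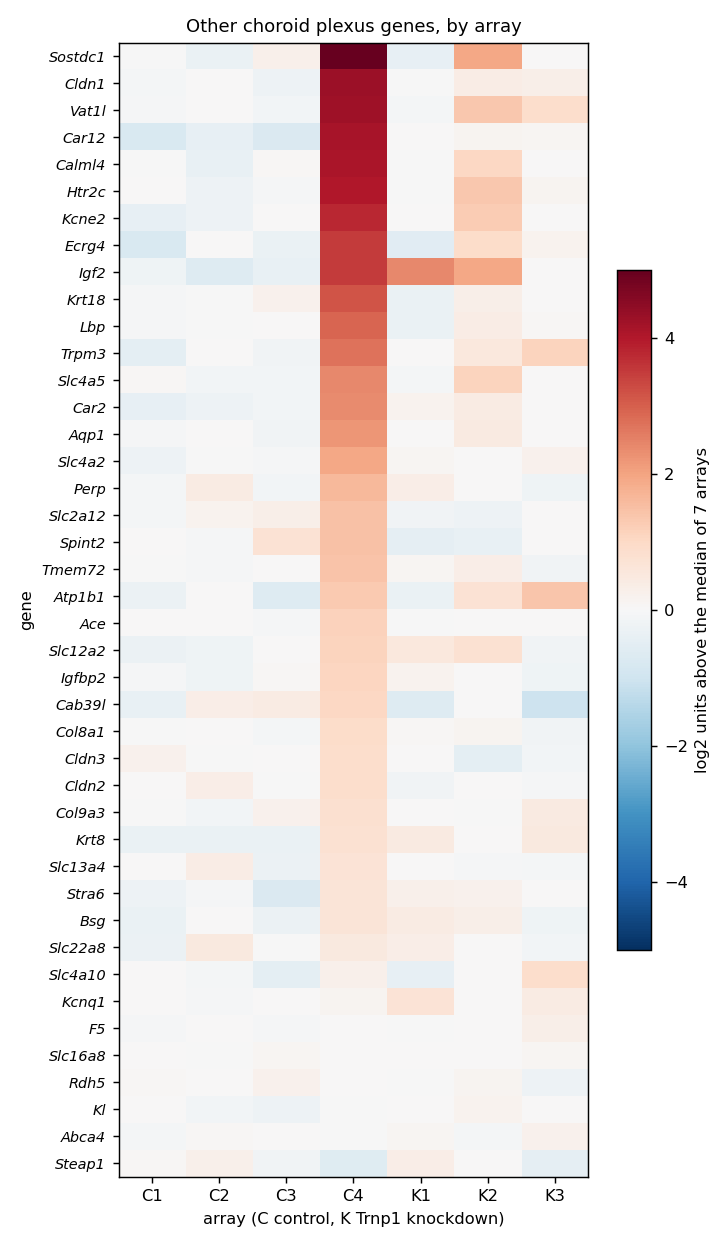
Height above the median of the 7 arrays, in log2 units, of the 42 measured choroid plexus genes that are not members, sorted by control replicate 4 (C4). In C4 25 genes are at least 1 unit above the median and in K2 7 are, while C3 has 0.

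Between knockdown and control no gene of this plexus list passed the test over all genes (0 of 42 by limma). At an unadjusted p under 0.05, 0 were higher and 1 lower, beside 2.2% and 3.61% of all genes. The median difference was -0.24, with 14 higher and 28 lower, and without control replicate 4 and knockdown replicate 2 it was 0.11, with 29 higher and 13 lower. The smallest p belonged to Cab39l, which encodes a scaffold of the kinase LKB1, with a difference of -0.91 (SE 0.36), then to the protease inhibitor gene Spint2 (-0.80, SE 0.37, and -0.45 without both arrays) and the potassium channel gene Kcnq1 (0.34, SE 0.17, and 0.56 without both arrays). The brightest probe sets of the list were those of Bsg, a cell surface chaperone of lactate transporters, and of the growth factor binding protein gene Igfbp2. Bsg differed by 0.16 (SE 0.27) and Igfbp2 by -0.22 (SE 0.31).

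Genes of multiciliated cells, a programme that plexus and ependymal cells share, were high mainly in control replicate 4. There 8 of 26 were at least 1 log2 unit above the median (3.29% of all genes). In knockdown replicate 2 it was 1 of 26 (1.38% of all genes), Enkur (5.85 and 4.39, against 3.14 to 3.32 elsewhere). Spag6l, a component of motile cilia, was at 6.73 in control replicate 4 and between 4.07 and 4.45 elsewhere, and the radial spoke gene Rsph4a at 5.68 and between 2.89 and 3.30. Foxj1, the master regulator of motile cilia, was at 5.02, 4.71, 4.80 and 5.79 in controls and 4.69, 5.26 and 4.91 in knockdown samples. Between groups 0 of 26 passed by limma. At an unadjusted p under 0.05 there was 1 lower, Mcidas (difference -0.38, SE 0.15), beside 3.61% of all genes lower. The median difference was -0.09, with 7 higher and 19 lower, and 0.08, with 18 higher and 8 lower, without control replicate 4 and knockdown replicate 2.

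Signals and other factors of the hem and dorsal midline varied from gene to gene across the arrays. Their mean height above the median was 0.54 log2 units in control replicate 4 and 0.27 in knockdown replicate 2, and 0.15 or lower in the other arrays. Of 31 measured genes 14 were highest in control replicate 4, as were 2779 of all 19938 genes. At least 1 log2 unit above the median were 3 of 31 in control replicate 4 (3.29% of all genes), 2 in knockdown replicate 2 (1.38%) and 2 in control replicate 1 (0.802%). Bmp4, a BMP ligand of the midline, was at 5.90 in control replicate 4 and between 3.86 and 4.01 in the other arrays, which is the pattern of Msx1. The hem ligand gene Wnt3a was between 3.33 and 3.92 in all arrays, and Wnt2b, Wnt5a and Wnt8b stayed between 3.00 and 4.08. Whether these low Wnt levels lie above background was not determined. Sulf1, a sulfatase that edits heparan sulfate, was at 8.63 in control replicate 4, 6.17 in knockdown replicate 2 and between 3.58 and 3.88 elsewhere. The zinc finger gene Zic1 was instead at 6.44 in control replicate 1, 6.06 in control replicate 4 and 6.95 in knockdown replicate 2, and between 4.48 and 5.27 in the others.

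**Figure D4:**
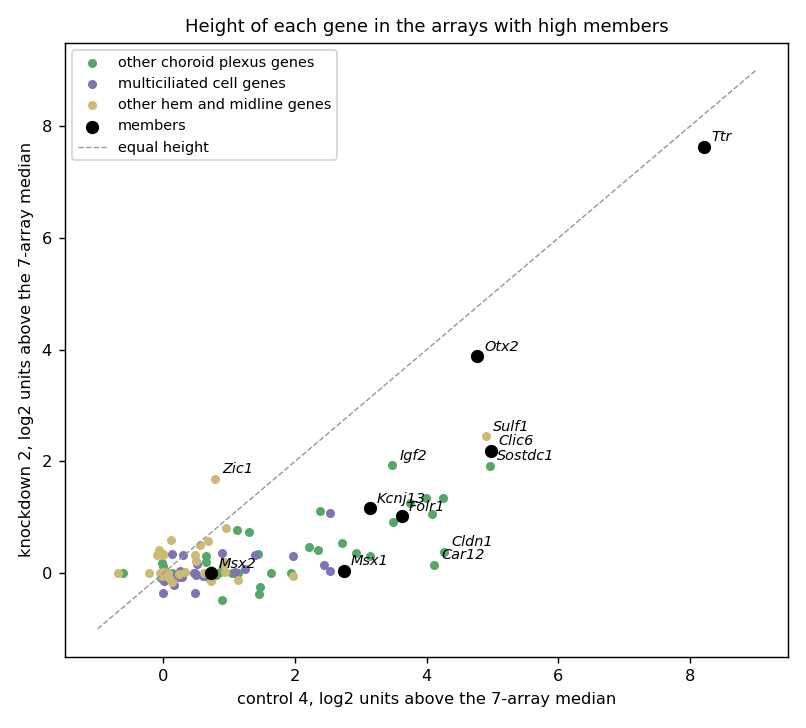
Height above the 7-array median in control replicate 4 (x) and knockdown replicate 2 (y), in log2 units, for the members (black) and the measured genes of the plexus, multiciliated cell and hem lists. Ttr and Otx2 lie nearest to the line of equal height among the high members, Msx1 and Cldn1 are high only on the x axis, and Zic1 lies above the line.

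Between groups 0 of the 31 hem genes passed by limma. At an unadjusted p under 0.05 there was 1, higher, beside 2.2% of all genes higher and 3.61% lower. This was Bmp2, a BMP ligand, at 3.39, 3.21, 3.22 and 3.30 in controls and 3.62, 3.71 and 3.42 in knockdown samples (difference 0.30, SE 0.11). Its mean level of 3.41 was at percentile 19.6 of all genes, and whether it lies above background was not determined. Id1, a target of BMP signalling, differed by -0.57 (SE 0.30) and Zic5 by -0.59 (SE 0.38, and -1.05 without control replicate 4 and knockdown replicate 2). The Wnt targets Axin2 and Nkd1, the brightest of the list besides, differed by -0.01 (SE 0.19) and 0.01 (SE 0.24). The median difference of the list was -0.02, with 13 higher and 18 lower.

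The BMP pathway around the Msx genes was measured in 3 further lists, and none of their genes passed by limma. Among receptors and Smads (10 measured) 7 were higher and 3 lower with a median difference of 0.10. In control replicate 4 and in knockdown replicate 2, 0 of 10 were high, beside 3.29% and 1.38% of all genes. Bmpr1b, a type I receptor, differed by 0.32 (SE 0.14), Smad4, the common mediator, by -0.20 (SE 0.10) and Bmpr2, the type II receptor, by 0.24 (SE 0.18), while Smad1 and Smad5 differed by 0.01 and 0.06. Among antagonists and feedback inhibitors (13 measured) 8 were higher and 5 lower, median 0.06. Fst, which encodes follistatin, differed by -0.39 (SE 0.14), the inhibitory Smad gene Smad7 by 0.47 (SE 0.24) and the pseudoreceptor gene Bambi by 0.71 (SE 0.44, and 1.15 without control replicate 4 and knockdown replicate 2), with its highest level of 7.14 in knockdown replicate 1. Among BMP targets (11 measured, Msx1 and Msx2 included) 5 were higher and 6 lower, median -0.09. Id2 and Hey1 differed by -0.53 (SE 0.24) and -0.26 (SE 0.31).

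Factors of cortical identity, of which Lhx2 keeps the neighbouring cortex from becoming hem, were read from the same arrays. Lhx2 was at 10.90, 10.35, 10.41 and 10.33 in controls and 10.34, 10.16 and 9.71 in knockdown samples (difference -0.43, SE 0.20). Emx1, a dorsal cortical factor, was at 7.85 in control replicate 4 and 7.26 in knockdown replicate 2 (difference -0.36, SE 0.12, limma adjusted p = 0.825). Of the 14 measured, 6 were higher and 8 lower, median -0.09, and 0 passed. The defining genes of cortical progenitors and neurons summed to an array signal of 12696 to 15578 in controls and 13127 to 14000 in knockdown samples, with control replicate 4 the lowest of the 7 arrays. The summed signal is the sum of 2 to the power of the log2 level over a list. For the 7 members it was 102 to 7213 in controls and 120 to 4353 in knockdown samples.

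Markers of other cell types moved with the plexus genes in some arrays and apart from them in others. Of all genes, 3.29% were at least 1 log2 unit above the median in control replicate 4 and 1.38% in knockdown replicate 2. In knockdown replicate 1 it was 1.74% and in control replicate 3 0.512%. All 12 microglia and macrophage genes were at least 1 log2 unit above the median in control replicate 4 and 7 of 12 in knockdown replicate 2, and their summed signal was 1247 to 9241 in controls and 2201 to 5549 in knockdown samples, highest in those same arrays. In control replicate 3, with Ttr at 9.86, 0 of 12 were high and the sum was 1354. Endothelial and mural genes were high for 8 of 14 in control replicate 4 and 3 of 14 in knockdown replicate 2, but for 11 of 14 in knockdown replicate 1, where Ttr was at 4.34 (sums of 616 to 2316 in controls and 1138 to 3417 in knockdown samples). Ventral telencephalon genes were high in knockdown replicate 2 for 7 of 11 and in control replicate 4 for 0 of 11 (sums of 187 to 222 in controls and 243 to 1502 in knockdown samples). Meningeal genes were high for 2 and 5 of 17 in control replicate 4 and knockdown replicate 2 (sums of 424 to 989 in controls and 371 to 760 in knockdown samples), and erythroid genes for 1 and 2 of 5 (sums of 2333 to 7599 in controls and 4204 to 7501 in knockdown samples). The part of these cells in the values of the members was not tested.

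**Figure D5:**
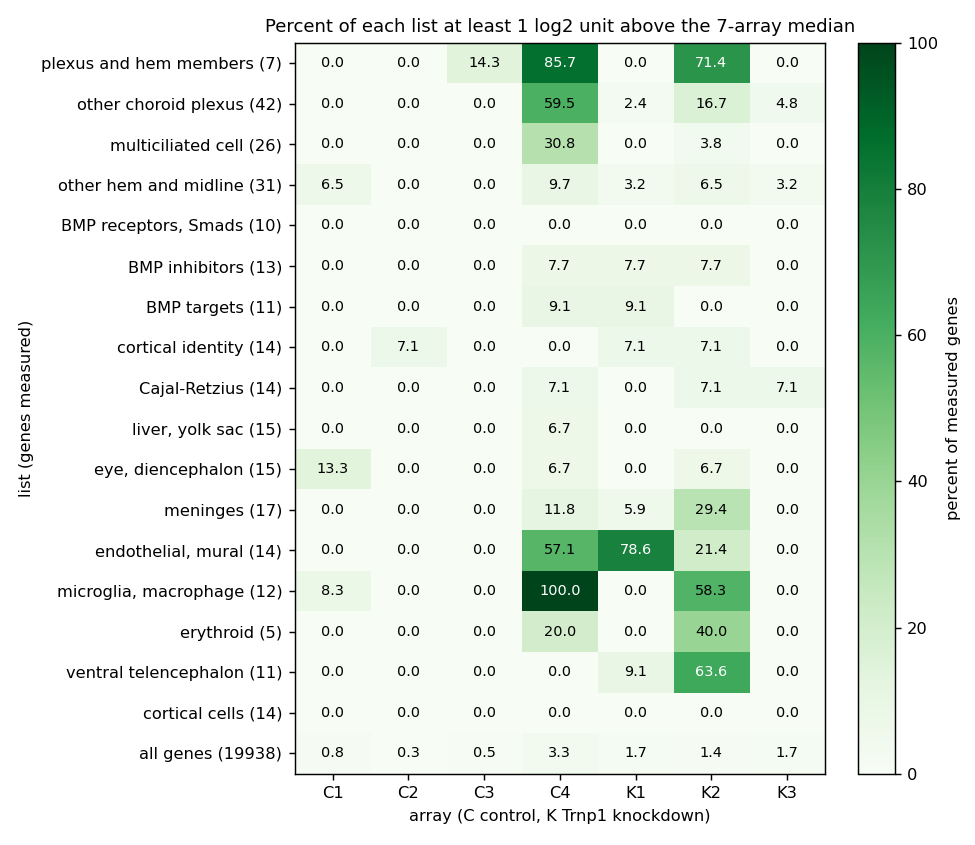
Percent of the measured genes of each list that are at least 1 log2 unit above the 7-array median, by array, with all 19938 genes in the last row. In C4 and K2 the percent is 85.7 and 71.4 for members, 59.5 and 16.7 for other plexus genes and 100 and 58.3 for microglia genes. It is 57.1 and 21.4 for endothelial genes, which reach 78.6 in K1, and 11.8 and 29.4 for meningeal genes. Multiciliated cell genes are at 30.8 and 3.85, erythroid genes at 20 and 40 and all genes at 3.29 and 1.38. Ventral telencephalon genes are at 0 in C4 and 63.6 in K2.

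Lists for other places where members are made were read in the same way. Of 15 genes of proteins that liver and yolk sac secrete along with Ttr, 1 was high in control replicate 4 (3.29% of all genes). In knockdown replicate 2 (1.38%) and control replicate 3 (0.512%) it was 0. Counts of 0 or 1 of 15 are too small to set apart from these shares. Alb, which encodes serum albumin, was between 3.14 and 3.73 in all arrays and Apoa1 between 4.87 and 5.25. Whether the levels of Alb lie above background was not determined. The iron carrier gene Trf was at 7.60 in control replicate 4, 6.82 in knockdown replicate 2 and 4.84 in control replicate 3. Of 15 genes of eye and diencephalon, where Otx2 is also used, 1 was high in control replicate 4 (3.29% of all genes). In knockdown replicate 2 it was 1 (1.38%) and in control replicate 1 it was 2 (0.802%). The diencephalic Wnt effector gene Tcf7l2 was at 8.90 in knockdown replicate 2 and 7.40 in control replicate 4, with 7.08 to 7.98 in the other arrays.

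The genes whose profile over the 7 arrays was most like a member's were named for Ttr, Folr1 and Msx1, the members with a mean level above the median of all genes, among genes above it. The measure was Pearson's r over the 7 arrays, given as a description, since it rests on the few arrays in which a member was high. For Ttr these were Lcor, Cog2, Csf1, Ugp2 and Psmb10 (r of 0.97, 0.96, 0.93, 0.92 and 0.92). For Folr1 they were Tbc1d9, Selplg, Clu, Vat1l and Sostdc1 (0.98 to 0.99), of which Vat1l and Sostdc1 stand on the plexus list, and for Msx1 they were Cpt1a, Pacsin2, Slc4a2, Egln2 and Glis3 (0.97 to 0.99). Without the 2 arrays farthest from the median of the member, r was 0.72 to 0.98 for the 5 genes named for Ttr. The arrays left for Ttr still held control replicate 3, at 9.86 against 4.00 to 4.34 in the others. This r rests mainly on that array. For Folr1 r was 0.55 to 0.98 for 4 genes, Vat1l at 0.93 among them, and -0.14 for Sostdc1, and for Msx1 it was 0.38 for Slc4a2 and 0.65 to 0.98 for the others. Among the members, Folr1, Kcnj13 and Clic6 were closest to each other (r of 0.96 to 0.98), Otx2 was nearest to Clic6 (0.95), and Ttr, which was high in control replicate 3 too, was nearest to Otx2 (0.85). Msx1 with Msx2 and Folr1 with Msx2 also reached 0.96. Every member had non-member genes closer to it. Among 19937 genes the nearest member ranked between 17 (for Clic6) and 94 (for Msx2).

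Trnp1 (Entrez 69539) was read as a check of the labels. It was lower in each knockdown array than in any control array, with a difference of -0.40 (SE 0.12, limma adjusted p = 0.825, and p = 0.0286 by the exact two-sided permutation test, the smallest p that 35 splits can give). The groups did not overlap, in either direction, for 5.67% of all genes, so this is a weak check. Correlations between arrays over all probe sets lay between 0.937 and 0.976 and precision is limited by how few arrays there are. Control replicate 4, where the members were highest, was also the array with the most genes at least 1 log2 unit above the median, 656, while the other arrays had between 63 and 347.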

How the data were processed

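RNA of 7 sorted cortical samples was amplified as whole transcriptome and hybridised to Affymetrix arrays, per the labels' protocols. The deposited log2 values come, per the submitters' processing notes, from the RMA method of Affymetrix Expression Console 1.2. RMA corrects background, equalises quantiles and shrinks differences between dim probe sets. A genome build was not given in the sources used here. No count depth applies to arrays.

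Of 35556 probe sets, 21789 had 1 gene symbol in the array annotation, 1621 several and 12146 none. Symbols were updated through Entrez identifiers in RefSeq (21698 matched). The probe set with the highest mean stood for a gene, and each member had 1. The groups were compared in limma 3.58.1 (R 4.3.3, lmFit and eBayes, two-sided, Benjamini-Hochberg over 19938 genes, threshold 0.05), without a filter on dim genes. In 5 simulated runs of this comparison over 19938 genes, the fit recovered 47% of genes shifted by 1 log2 unit and 81.6% of genes shifted by 2, with 8.4 false calls a run. The shifted genes were drawn at random from all genes, with normal noise. These rates do not hold for the members, whose SE was 0.22 for Msx2 and 0.75 (Msx1) to 2.74 (Ttr) for the others.

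Members and lists were chosen with earlier results of these data known, so no list was tested. The rule for named genes takes Trnp1, all members, and from each list 3 genes with the smallest p and 2 others with the highest level, of which the text gives those that bear on the members. For likeness it takes the 5 genes with the highest Pearson r. A gene without a probe set of its own symbol was not analysed. Alternatives were other priors, array weights, scalings, filters, probe set rules, a replicate block and leaving out arrays. Replicate numbers 1 to 3 occur in both groups, carry no stated link to a litter or day, and enter no main comparison.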

Additional observations from a re-analysis of the deposited data

Results flagged for a closer look

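In the 4 control arrays, 24 results were examined for a sample far from the others (its gap to the nearest one, divided by the range of the 4 and given in parentheses here, above Dixon's 95% limit), and 13 stood out. Members and lists were chosen with earlier results of these data known. The rate of about 1 in 20 that chance gives therefore does not apply to them. Control replicate 4 was the array far above the others for Folr1 (0.971), Clic6 (0.969), Otx2 (0.940), Kcnj13 (0.893) and Msx1 (0.858). Ttr did not stand out this way because control replicate 3 was high too. By the mean height of a list over its 7-array medians, control replicate 4 was far above the other controls for meningeal genes (0.986), other choroid plexus genes (0.947), multiciliated cell genes (0.927), BMP targets (0.926), erythroid genes (0.894) and endothelial and mural genes (0.880). It was far below the other controls for the defining genes of cortical cells (0.933). Control replicate 1 was far above the others for eye and diencephalon genes (0.849). The lists share genes and arrays, so these flags are not independent. The group of 3 knockdown arrays is too small for this rule.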

How the results depend on the processing

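No member passed under any of the alternatives, and 0 genes had a limma adjusted p under 0.05 in each of them (439 higher and 719 lower at an unadjusted p under 0.05 in the main comparison, and 183 and 1507 with array medians set equal, which moved the median of all genes from -0.001 to -0.11). The direction of each member changed under some setting. With the replicate block, which leaves control replicate 4 without a partner and so gives the values without it, the differences were 0.87 for Ttr, 0.41 for Folr1, 0.88 for Kcnj13, 0.66 for Clic6, 1.10 for Otx2, 0.42 for Msx1 and 0.062 for Msx2. Correlations of deviations between same-numbered samples, 0.028, -0.051 and 0.072, do not show that the numbers pair the samples. With array weights Otx2 differed by 0.36. Kcnj13 differed by -0.10 with array medians set equal, -0.069 after a further quantile normalization and -0.046 after cyclic loess. With 1 array left out at a time the ranges were -3.35 to 0.87 for Ttr, -0.83 to 0.41 for Folr1, -0.35 to 0.88 for Kcnj13, -1.39 to 0.66 for Clic6, -1.41 to 1.10 for Otx2, -0.66 to 0.42 for Msx1, -0.24 to 0.062 for Msx2 and -0.83 to 0.66 for the median of the members. Kcnj13 was lower in knockdown samples without control replicate 1, 2 or 3 or knockdown replicate 2. Leaving out control replicate 4 and knockdown replicate 2 together, chosen after seeing the data, gave 0.087 for Folr1, 0.48 for Msx1 and 0.062 for Msx2, and leaving out control replicate 3 as well gave 0.24 for Ttr, 0.054 for Folr1, 0.49 for Msx1 and 0.0045 for Msx2. With the dimmest 50% of genes left out only Ttr, Folr1 and Msx1 remained, so the other members and the median had no value there. RMA compresses differences between dim probe sets such as that of Msx2 (mean level 4.11), and whether such levels lie above background was not determined. Trnp1 kept its direction in all 20 alternatives (-0.51 to -0.31).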

Other observations

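Genes of Cajal-Retzius cells, early neurons that in part come from the cortical hem, were read in the same arrays. Of 14 measured genes 1 was at least 1 log2 unit above the median in control replicate 4 (3.29% of all genes). It was also 1 in knockdown replicate 2 (1.38%) and 1 in knockdown replicate 3 (1.68%). Counts of 1 of 14 are too small to set apart from these shares, and 0 passed by limma. Reln, which encodes the secreted protein reelin of these cells, was at 5.16, 5.02, 4.72 and 4.90 in controls and 5.05, 5.02 and 7.68 in knockdown samples, so its 1 high array had none of the members high. Id3, a BMP target, split the arrays in another way, at 7.11, 4.76, 4.59 and 7.38 in controls and 6.95, 6.76 and 4.34 in knockdown samples. Both genes were picked after their values were seen, and Reln is also among the named genes.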
